A study of Homo sapiens with 15 samples.

Results

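L540Cy and L540 are human lymphoid lines that the labels assign to classical Hodgkin lymphoma, and each was hybridised on 1 of the 15 Affymetrix U133 Plus 2.0 arrays of the series, so 2 arrays carry the comparison described here. The labels give no treatment for either line and do not state how they are related. L540Cy is known from background as a subline of L540 that was obtained for growth as tumours in immunodeficient mice. Each side is 1 culture and 1 array. The spread was therefore taken from the duplicate arrays of L428, L1236, KM-H2 and HDLM2 (8 arrays), the other lines that the labels assign to Hodgkin lymphoma, and L540Cy and L540 were assumed to vary as those lines do. The remaining 5 arrays were of Reh (B acute lymphoblastic leukaemia), Namalwa (Burkitt lymphoma) and SU-DHL-4 (B non-Hodgkin lymphoma). They served to show levels, in the choice of the probe set of each gene and in alternative fits. All values are log2 RMA signals, on which a difference of 1 is a doubling, and all differences are L540Cy minus L540.

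Hodgkin lines carry CD30 and live with constantly active NF-kB and cytokine signalling. L540 is known from background as a line of T cell origin that keeps some genes of cytotoxic lymphocytes. Interferon-stimulated genes encode antiviral proteins and are switched on through an interferon-stimulated response element in their promoters, while NF-kB drives survival genes, cytokines, their receptors and its own inhibitors. A subline keeps the identity of its parent but can drift from it in single genes, in pathways and in chromosome copies during separate culture.

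The labelled cell type held in both arrays. Of the 7 fixed Hodgkin markers, 7 had a log2 signal of at least 7 in L540Cy and 6 in L540. TNFRSF8, which encodes CD30, was at 11.41 in L540Cy and 12.15 in L540, the transcription factor gene BATF3 at 13.04 in L540Cy and 13.26 in L540, and the chemokine receptor gene CCR7 at 12.76 in L540Cy and 12.58 in L540. In both lines 3 of the 7 markers were below every other Hodgkin array. The chemokine gene CCL17, the marker under 7 in L540, was at 7.34 in L540Cy and 6.20 in L540, with 8.57 as the lowest of the others. The transcription factor gene GATA3 was at 8.97 in L540Cy and 10.23 in L540 (lowest of the others 11.05), and FSCN1, of actin bundling, at 9.16 in L540Cy and 7.54 in L540 (lowest of the others 10.18). T cell markers were mostly dim in both. CD3D was at 5.94 in each, CD3E at 5.55 in each, and CD4, at 10.53 in L540Cy and 10.51 in L540, was the 1 of 8 measured T cell markers above 7 in either array. The 5 measured B cell markers were all below 7 in both. Genes that single out 1 of the 7 other lines, by over 3 log2 above every other line, differed by medians of -0.13 to 0.03 between L540Cy and L540. Single ones went either way: of the 58 genes of HDLM2, 5 were higher and 11 lower in L540Cy by at least 1 log2, and those of KM-H2 ranged from -2.88 to 5.31 log2.

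L540Cy and L540 were far closer to each other than to any other line, and yet clearly further apart than duplicate arrays. Over 19775 genes the difference between L540Cy and L540 had an SD of 0.536 log2 (Pearson r = 0.9772 across genes, which are not independent replicates). The SD was 0.24 for the duplicates of L428, 0.29 for L1236, 0.301 for KM-H2 and 0.361 for HDLM2, and between 0.975 and 1.306 when either line was set against an array of another line. A difference of at least 1 log2 was reached by 1093 genes, or 5.53%, between L540Cy and L540, against 45 to 286 genes between duplicates. The number of arrays limits this precision, no spread of L540Cy or L540 itself was measured, and RMA compresses differences near background.

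A limma fit of the 10 Hodgkin arrays with 1 mean per line, whose spread has 4 residual degrees of freedom, called 435 genes higher in L540Cy (2.20% of all tested) and 443 lower (2.24%), 4.44% in either direction, at a Benjamini-Hochberg adjusted p under 0.05, and 3379 genes at an unadjusted p under 0.05. Genes past this threshold are called here. With the array number as a block the counts were 842 higher (4.26%) and 858 lower (4.34%), and all 435 and 443 genes remained among them. L540Cy and L540 have no array number, so the block left their difference unchanged and altered the spread alone. It is therefore no adjustment of the comparison itself. Without either array of L428, the line with the closest duplicates, 249 genes were higher and 281 lower. Adding the 5 other arrays, and with them the spread between the duplicates of Reh and Namalwa, left 127 higher and 167 lower. A rule without a test, a difference of at least 1 log2 that also exceeded every duplicate difference of the 4 lines, was met by 561 genes upward (2.84%) and 504 downward (2.55%), or 5.39% in all. Among called genes with over 1 probe set, all probe sets had the same sign in 220 of 290 higher genes and in 209 of 276 lower genes.

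**Figure D1:**
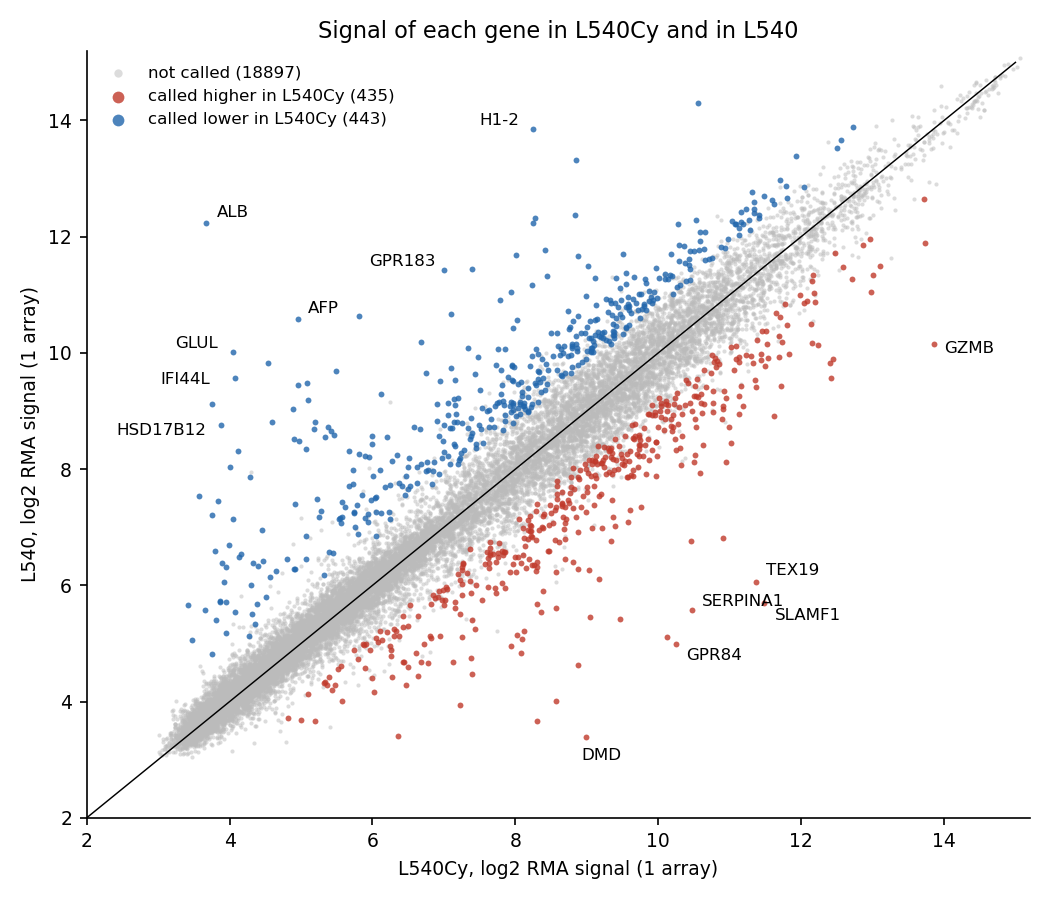
Each point is 1 of 19775 genes, placed by its log2 RMA signal in L540Cy (x axis) and in L540 (y axis), with 1 array each. Red points are the 435 genes called higher in L540Cy, blue points the 443 called lower and grey points the 18897 not called. The line marks equal signal. ALB and GLUL lie far above it, and SLAMF1, GPR84 and DMD far below it.

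The 15 largest rises included cell surface receptors. SLAMF1, the first of them, a receptor of activated lymphocytes also called CD150, was at 11.48 in L540Cy and 5.69 in L540, and at 5.10, 8.66 and 11.77 (lowest, median and highest) in the 8 other Hodgkin arrays. L540Cy thus sat near the top of that range and L540 near its bottom. The difference was 5.79 ± 0.40 log2 (SE, limma adjusted p = 0.000211), and all 3 probe sets differed by at least 1 log2. GPR84, the fourth, a receptor for medium-chain fatty acids known from myeloid cells, was at 10.24 in L540Cy and 5.0 in L540. L540Cy was above all other arrays, since the highest of the 13 others was 7.19, and the 8 other Hodgkin arrays had a median of 4.54. The difference of GPR84 was 5.24 ± 0.36 log2 (SE, limma adjusted p = 0.000202, 1 probe set).

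Of similar size were the rises of DMD (dystrophin) and TEX19 (a germ cell gene), the second and the third, and of PTPN14 (a tyrosine phosphatase). DMD was at 8.99 in L540Cy and 3.39 in L540, a difference of 5.60 ± 0.43 log2 (SE, limma adjusted p = 0.000338). The 8 other Hodgkin arrays lay between 6.47 and 9.19, so that L540 lay below all of them, while 2 of the 4 probe sets of DMD were at least 1 log2 apart and the lowest was at -0.02. TEX19 was at 11.37 in L540Cy and 6.06 in L540 (5.31 ± 0.25 log2), and PTPN14 at 10.12 in L540Cy and 5.11 in L540 (5.02 ± 0.26 log2), with 4 of 4 probe sets at least 1 log2 higher. PTPN14 was at most 5.22 in the 8 other Hodgkin arrays, which places L540 among them and L540Cy above them, although the Burkitt lymphoma line Namalwa had 9.63 and 9.18. SERPINA1, which encodes alpha-1 antitrypsin, was 4.89 ± 0.51 log2 higher and TDRD9, a helicase gene of the germ line, 4.64 ± 0.21 log2 higher (limma adjusted p at most 0.00199 for these 4). Other Hodgkin lines also carried TEX19 (12.30 and 11.96 in KM-H2), SERPINA1 (9.69 and 10.66 in KM-H2) and TDRD9 (8.19 and 8.40 in HDLM2). For SERPINA1, 2 of 4 probe sets were at least 1 log2 higher and the lowest was at -0.12.

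The other rises of the 15 largest mixed survival, transport and immune genes. BCL2A1, an anti-apoptotic BCL2 relative and NF-kB target, was at 8.57 in L540Cy and 4.0 in L540, and at 6.42, 10.18 and 12.61 in the other Hodgkin arrays. L540 was therefore the lowest of the 10 Hodgkin arrays for BCL2A1, and L540Cy lay inside the range of the others. Its difference was 4.57 ± 0.71 log2 (SE, limma adjusted p = 0.0108), and with all 15 arrays it was not called (adjusted p = 0.0664, from 0.00302 to 0.0664 over its alternatives other than a required minimum difference). The aquaporin gene AQP9 was 4.24 log2 higher, the haem oxygenase gene HMOX1 4.09, the potassium channel gene KCNN4 4.06 and the interleukin 1 receptor gene IL1R1 3.68 log2 higher. HMOX1, at 10.90 in L540Cy, and KCNN4, at 9.47 in L540Cy, were above every other Hodgkin array, the highest of which had 8.77 for HMOX1 and 8.90 for KCNN4. FRMD4B was 3.59 and the pseudogene DUXAP10 3.28 log2 higher. GZMB, the 12th by size, is described with the cytotoxic genes.

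ALB had the largest fall of all genes. This gene for serum albumin was at 3.67 in L540Cy and 12.24 in L540, and between 3.28 and 3.58 in the 8 other Hodgkin arrays. L540 alone of the 15 arrays carried an albumin signal, as the highest of the 13 others was 3.92. The difference was -8.57 ± 0.20 log2 (SE, limma adjusted p = 5.07e-07), and all 4 probe sets of ALB were lower by at least 1 log2. AFP, which encodes the fetal relative alpha-fetoprotein and lies beside ALB on chromosome 4, had the same pattern. It was at 4.95 in L540Cy and 10.59 in L540, with 5.42 as the highest of the 13 others, and differed by -5.64 ± 0.24 log2 (SE, limma adjusted p = 3.34e-05). Other genes of hepatocytes did not share it. Of 11 hepatocyte markers ALB alone reached 7 in L540, none did in L540Cy, and APOA1, for example, was at 5.64 in L540Cy and 5.36 in L540. Of the 17 liver and albumin family genes measured, 2 fell (ALB and AFP), 1 rose (SERPINA1) and the median difference was -0.04 log2. Over all tested genes 2.24% were called lower and 2.20% higher.

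GLUL, the gene of glutamine synthetase, was at 4.05 in L540Cy and 10.01 in L540. In the 8 other Hodgkin arrays it was at 3.71, 7.07 and 12.01 (lowest, median and highest), so neither value lay outside the range of the others. The difference was -5.96 ± 0.38 log2 (SE, limma adjusted p = 0.000163), and 3 of 4 probe sets were at least 1 log2 lower. Of 18 genes of glutamine, serine and other amino acid metabolism, 2 fell and 0 rose, with a median difference of 0.21 log2. Over all tested genes 2.24% were called lower and 2.20% higher. The second fall was CAD, the first enzyme of pyrimidine synthesis, at 8.86 in L540Cy and 10.04 in L540 (-1.18 ± 0.22 log2, limma adjusted p = 0.0237). CAD was not called without either array of L428 (adjusted p = 0.0533), with the mean of its 2 probe sets (-0.62 log2, adjusted p = 0.118) or with all 15 arrays (0.0613).

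Several falls left L540Cy below every other Hodgkin array. ARMCX3, a mitochondrial protein gene on the X chromosome, was at 3.75 in L540Cy and 9.12 in L540, and no other of the 15 arrays was below 7.79 (-5.36 ± 0.34 log2). Its relative ARMCX6 was at 5.82 in L540Cy and 10.64 in L540 (-4.82 ± 0.27 log2), below the lowest of the other Hodgkin arrays at 9.77. HSD17B12, a gene of fatty acid elongation, was at 3.88 in L540Cy and 8.76 in L540, against at least 9.07 in the 13 others, but 1 of its 4 probe sets carried the fall of -4.88 log2 and another had 0.21. ADGRE1, an adhesion receptor gene, was at 4.54 in L540Cy and 9.83 in L540, and at 8.35 or more in the 8 other Hodgkin arrays (-5.29 ± 0.21 log2), while the 5 arrays of the other lymphoid lines, from 4.90 to 6.44, were dim as well. The limma adjusted p was at most 0.000167 for these 4 genes.

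The galectin genes LGALS3 and LGALS8 and the oxysterol receptor gene GPR183 fell as well. LGALS3 was at 5.08 in L540Cy and 9.48 in L540 (-4.41 ± 0.23 log2), LGALS8 at 4.60 in L540Cy and 8.81 in L540 (-4.21 ± 0.32 log2), and GPR183 at 7.0 in L540Cy and 11.42 in L540 (-4.42 ± 0.73 log2, limma adjusted p = 0.0142). For both galectin genes the other Hodgkin arrays spanned both values, from 4.32 to 12.95 for LGALS3, and for GPR183 they reached 11.10, just below L540. ERMN was different, since L540 stood out: it was at 4.96 in L540Cy and 9.44 in L540, against 3.45 to 5.98 in the 8 other arrays (-4.48 ± 0.63 log2, limma adjusted p = 0.00811). IFI44L, H1-2, H2BC12L and H2BC17 completed the 15 falls and belong to the groups below. All 30 genes held their call when any 1 of the 8 duplicate arrays was left out. This changes the spread alone, since the arrays of L540Cy and L540 that give the difference cannot be left out. Either array of a line gives the same fit when left out, so there is 1 distinct check per duplicated line. The 30 genes had also been chosen for differences larger than every duplicate difference.

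**Figure D2:**
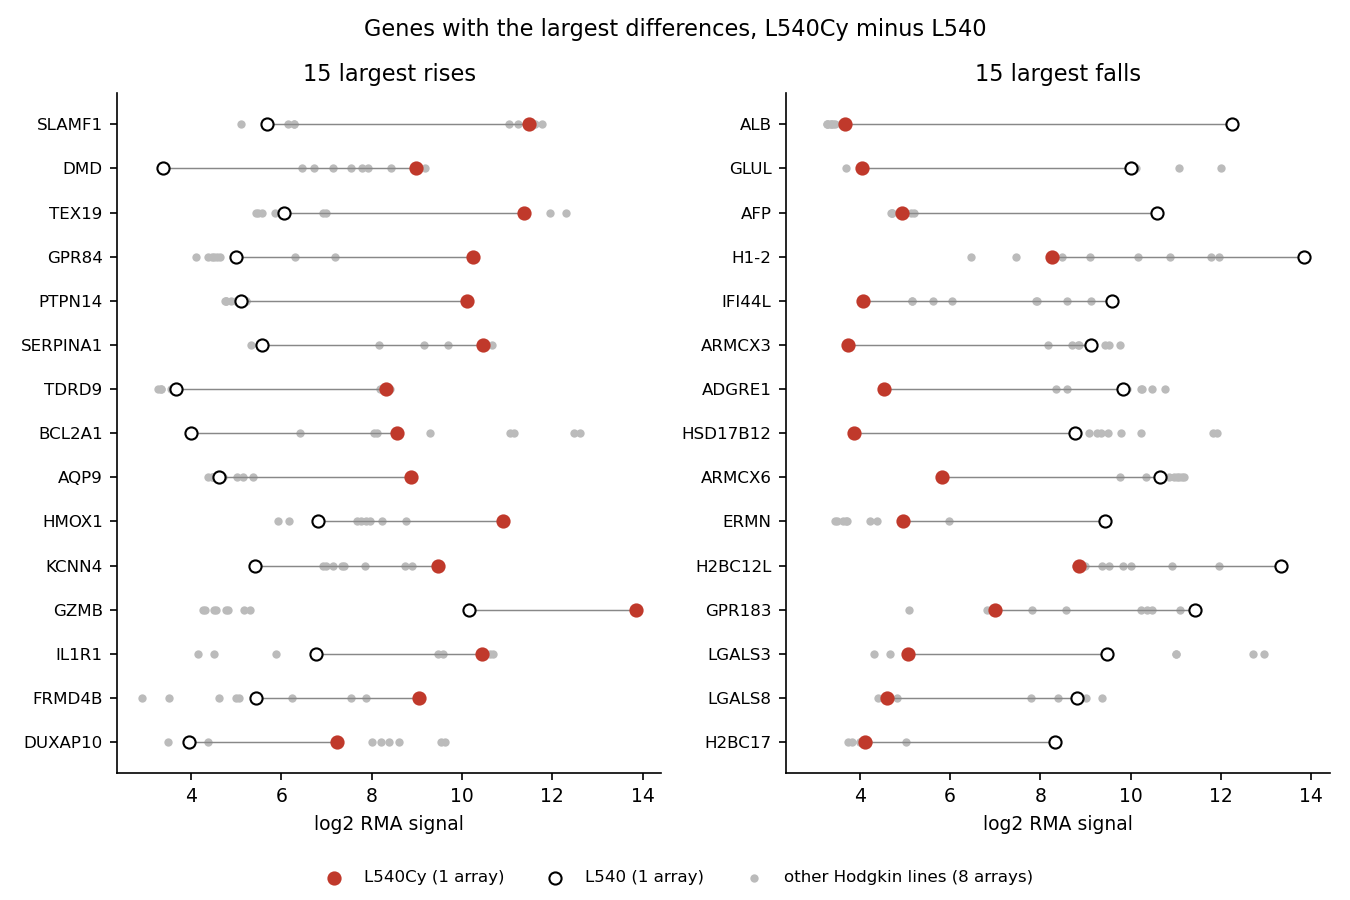
The 15 largest rises (left) and falls (right) among called genes, as log2 RMA signal on the x axis. Red points are L540Cy, open circles L540 and grey points the 8 arrays of the other Hodgkin lines. For ALB, AFP and ERMN the open circle stands apart from the grey points, and for ARMCX3, ADGRE1, HSD17B12 and ARMCX6 the red point does.

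Where several probe sets of a gene disagreed, their mean gave smaller differences. With it SLAMF1 had 3.90, ALB -3.86, GLUL -2.82, DMD 1.95, SERPINA1 2.53, PTPN14 3.09, IL1R1 2.30, DUXAP10 1.80 and FRMD4B 1.16 log2. LGALS3 had -2.22, ARMCX3 -4.14, ARMCX6 -2.51, LGALS8 -2.38 and HSD17B12 -1.31 log2. All of these were still called.

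A search over the called genes named those in which 1 of the pair stood alone among the 15 arrays. In L540Cy alone 6 genes were dim, below 5.5 while all others were at 7 or more: ARMCX3, HSD17B12, the fatty acid elongase gene ELOVL6, LACTB, the adaptor gene SKAP2 and WDR11. WDR11 was at 3.57 in L540Cy and 7.53 in L540, with 8.72 as the lowest of the 13 others. L540Cy alone was bright for AQP9, CACNA2D3, GZMA and MAP3K5-AS1. L540 alone was bright for ALB, AFP, the checkpoint ligand gene HHLA2 (4.89 in L540Cy and 9.04 in L540) and the histone genes H2AC16 and H2BC17, and alone below 5.5 for no gene by this rule but SLC1A4, an amino acid transporter gene at 7.13 in L540Cy and 4.68 in L540. Among all called genes the 8 other Hodgkin arrays gave no single pattern. Of the 435 higher genes L540Cy alone lay outside their range in 159 and L540 alone in 89, and of the 443 lower genes L540Cy alone in 169 and L540 alone in 93. Over all genes the shares were 15.1% for L540Cy alone and 13.4% for L540 alone.

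Interferon-stimulated genes were lower in L540Cy. For this and every list below, the shares over all tested genes are 2.20% called higher and 2.24% called lower. Of 30 measured members 17 fell, 0 rose and 13 were not called, and 26 of 30 differences were below 0. The median difference was -1.35 log2, beside -0.02 log2 over all genes and -0.05 to 0.34 log2 for the same list between duplicates. The median level of the list was 6.76 in L540Cy and 8.57 in L540, and 7.81 to 9.19 in the 8 other Hodgkin arrays. L540Cy was thus below all of them and L540 inside their range. IFI44L was at 4.08 in L540Cy and 9.58 in L540, against 5.15, 6.98 and 9.13 in the others (-5.50 ± 0.43 log2, limma adjusted p = 0.000354). IFI44 was at 4.91 in L540Cy and 8.52 in L540 (-3.61 ± 0.77 log2, limma adjusted p = 0.0363), and XAF1, a pro-apoptotic gene, at 5.34 in L540Cy and 8.55 in L540, against at least 7.63 in the others (-3.22 ± 0.24 log2, limma adjusted p = 0.000321). The remaining falls ran from -3.13 log2 for OAS1, an antiviral synthetase gene, to -1.12 log2 for BST2, and included IRF7, the interferon regulatory factor (-1.44 log2), and ISG15 (-1.24 log2). The largest difference above 0 was that of IFIT2, at 8.85 in L540Cy and 7.45 in L540, without a call (1.40 ± 0.37 log2, limma adjusted p = 0.0769). Without either array of L428 the list had 10 falls, and with all 15 arrays 4. IFI44 was among the losses (adjusted p = 0.0728 without L428 and 0.169 with all 15 arrays, from 0.0029 to 0.506 over its alternatives). In the blocked fit 1 member was called higher.

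The promoters of these genes are shown because the members moved together. RefSeq promoters (GRCh38.p14) were at hand for 21 of the 30 genes. The letters GAAANNGAA of the response element, searched on both strands in the 250 bases before the start, were found in 9 of 12 called members (75%), in 6 of 9 members that were not called (66.7%) and in 8.41% of 27305 genes. Below, capitals mark these letters or their reverse complement in the 150 bases before the start, for IFI44L and for IFIT3 (-2.34 log2) and IFI27 (-2.25 log2), which were chosen because their matches lie there.
IFI44L, chr1:78620298-78620447, + strand: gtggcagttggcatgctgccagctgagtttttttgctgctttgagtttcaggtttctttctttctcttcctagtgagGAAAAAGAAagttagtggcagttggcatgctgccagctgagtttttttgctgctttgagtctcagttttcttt
IFIT3, chr10:89327847-89327996, + strand: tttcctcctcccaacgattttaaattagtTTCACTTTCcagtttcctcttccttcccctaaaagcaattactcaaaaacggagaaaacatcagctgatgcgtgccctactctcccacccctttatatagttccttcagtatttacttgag
IFI27, chr14:94110586-94110735, + strand: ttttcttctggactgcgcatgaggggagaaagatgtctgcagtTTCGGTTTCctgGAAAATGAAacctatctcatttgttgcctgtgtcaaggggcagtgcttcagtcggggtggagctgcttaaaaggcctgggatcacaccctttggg
IFI44L and IFIT3 hold 1 match each, and IFI27 holds a pair of matches close together. A match describes letters only and was shared by called and uncalled members.

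The called genes of antigen presentation were all lower in L540Cy, while 2.24% of all tested genes were called lower. All 14 measured MHC class I genes had differences below 0, with a median of -0.54 log2, and 3 were called lower and 0 higher (5 lower with the array number as a block). Their median level was 10.84 in L540Cy and 12.07 in L540, and 10.93 to 11.71 in the 8 other Hodgkin arrays, so the pair lay on opposite sides of that range. PSMB9 and PSMB8, subunits of the immunoproteasome, were at 10.28 in L540Cy and 12.22 in L540 for PSMB9 (-1.94 ± 0.24 log2, limma adjusted p = 0.00451) and at 10.58 in L540Cy and 11.92 in L540 for PSMB8 (-1.34 ± 0.24 log2, limma adjusted p = 0.0174). NLRC5, the transactivator of MHC class I genes, was lower by -0.97 ± 0.20 log2 (limma adjusted p = 0.0338). Of 15 MHC class II genes 2 fell, 0 rose (4 and 0 with the array number as a block) and the median was -0.22 log2. HLA-DMA, which loads peptides, was at 9.11 in L540Cy and 10.32 in L540 (-1.20 ± 0.26 log2, limma adjusted p = 0.0378). HLA-DQA1 was at 6.91 in L540Cy and 9.12 in L540 (-2.21 ± 0.23 log2, limma adjusted p = 0.00199), but this rested on 1 of 3 probe sets, and the most variable probe set had 0.03 log2 (adjusted p = 0.997, the highest of its alternatives). Calls ended without an array of L428 for NLRC5 (adjusted p = 0.0728) and HLA-DMA (0.0609), without one of L1236 for HLA-DMA (0.0525), and with all 15 arrays for these and PSMB8 (0.128 to 0.235).

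NF-kB genes were higher in L540Cy. All 18 measured members had differences above 0, 7 rose and 0 fell, and the median difference was 0.92 log2, beside -0.02 log2 over all genes and 0.03 to 0.38 log2 between duplicates. The median level of the list was 9.94 in L540Cy and 8.82 in L540, and 8.73, 9.72 and 10.02 (lowest, median and highest) in the other Hodgkin arrays. L540 was near the bottom of that range and L540Cy near its top. After BCL2A1 the largest rises were those of TNFAIP3, the A20 inhibitor that NF-kB induces (12.97 in L540Cy and 11.04 in L540, 1.93 ± 0.42 log2, limma adjusted p = 0.0382), and of the subunit gene REL (10.24 in L540Cy and 8.33 in L540, 1.92 ± 0.28 log2, limma adjusted p = 0.00906). The inhibitor gene NFKBIA was at 13.74 in L540Cy and 11.89 in L540 (1.84 ± 0.28 log2), the adhesion gene ICAM1 at 10.90 in L540Cy and 9.08 in L540 (1.82 ± 0.34 log2), and TRAF1 and NFKBIE rose by 1.73 and 1.19 log2. With all 15 arrays 2 of the 7 calls were left, and with the most variable probe set 4. TNFAIP3 was not called without an array of L428 (adjusted p = 0.0747) or KM-H2 (0.0564) and had 0.255 with all 15 arrays, where REL had 0.379. Over all alternatives the adjusted p reached 1.0 for TNFAIP3 and 0.546 for REL, each where a difference beyond 1 log2 was tested for. ICAM1 had 0.0503 without an array of L428 and 0.295 with all 15.

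RefSeq promoters were at hand for 15 of the 18 NF-kB genes. The letters GGGNNTTTC, from a kB element, searched in the same way, were found in 3 of 6 called members (50%), in 6 of 9 members not called (66.7%) and in 5.05% of all 27305 genes. The 3 called members with a match are shown, with these letters or their reverse complement in capitals.
NFKBIA, chr14:35404750-35404899, - strand: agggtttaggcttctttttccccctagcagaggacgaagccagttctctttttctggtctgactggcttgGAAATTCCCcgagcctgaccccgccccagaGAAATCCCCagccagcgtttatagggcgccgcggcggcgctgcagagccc
TNFAIP3, chr6:137867109-137867258, + strand: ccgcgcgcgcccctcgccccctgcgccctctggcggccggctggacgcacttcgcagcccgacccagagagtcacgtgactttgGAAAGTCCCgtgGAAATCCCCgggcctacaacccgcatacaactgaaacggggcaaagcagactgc
REL, chr2:60881424-60881573, + strand: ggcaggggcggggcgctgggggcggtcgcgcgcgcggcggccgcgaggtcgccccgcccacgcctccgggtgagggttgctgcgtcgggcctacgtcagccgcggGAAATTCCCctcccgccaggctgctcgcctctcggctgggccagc
TNFAIP3 and NFKBIA hold a pair of matches each, and REL holds 1. A window can hold both motifs, as the searched bases of NFKBIA do. BCL2A1, the member with the largest rise, had no match to these letters in its window.

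Cytokine receptors rose more often than they fell, while 2.20% of all tested genes were called higher and 2.24% lower. Of 30 measured members 7 rose and 1 fell, with a median of 0.24 log2, and the median level was 9.10 in L540Cy and 7.61 in L540, inside the 7.04 to 9.14 of the other Hodgkin arrays. The interleukin 1 family stood at the top. IL1R1 was at 10.45 in L540Cy and 6.77 in L540 (3.68 ± 0.38 log2, limma adjusted p = 0.00179), IL18R1 at 9.07 in L540Cy and 7.0 in L540, below the others' lowest value of 7.89 (2.07 ± 0.26 log2, limma adjusted p = 0.00471), and the decoy receptor gene IL1R2 at 11.54 in L540Cy and 9.91 in L540 (1.62 ± 0.21 log2). These 3 genes are known to lie in 1 cluster on chromosome 2. CSF2RB, the common beta chain, was 1.73 ± 0.37 log2 higher (limma adjusted p = 0.0366), IL2RG, the common gamma chain, 1.36 log2 higher. OSMR, the oncostatin M receptor gene, fell by 0.81 ± 0.18 log2 with its brightest probe set (limma adjusted p = 0.0463), but the mean of its 3 probe sets was 0.10 log2 (adjusted p = 0.895). Without an array of L428 the list had 4 rises and 0 falls, and CSF2RB (adjusted p = 0.0755) and OSMR (0.0949) were not called. OSMR also ended without an array of L1236 (0.0703) or KM-H2 (0.064), and with all 15 arrays the list had 3 rises. Its blocked counts were 8 rises and 2 falls.

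Of 32 cytokine genes 4 rose and 0 fell, and the median difference was 0.13 log2. EBI3, a cytokine subunit gene, was at 10.95 in L540Cy and 8.12 in L540, and L540 was below the others' lowest value of 9.23 (2.83 ± 0.42 log2, limma adjusted p = 0.00933). TNFSF10, the death ligand TRAIL, was 1.58 ± 0.23 log2 higher (limma adjusted p = 0.00933), and IL32 1.18 ± 0.26 log2 higher (limma adjusted p = 0.04), whereas IL6, at 8.65 in L540Cy and 6.29 in L540, was not called (limma adjusted p = 0.0563). With all 15 arrays the list had 0 rises, with 0.0787 for EBI3, 0.0812 for IL32 and 0.491 for TNFSF10. IL32 was also lost without an array of L428 (adjusted p = 0.0828) or KM-H2 (0.0629). TNFRSF9, which encodes the costimulatory receptor 4-1BB, was the 1 call among 20 TNF receptor family genes, at 11.62 in L540Cy and 8.92 in L540 (2.70 ± 0.37 log2, limma adjusted p = 0.00699). In the blocked fit the family had 3 genes higher and 1 lower. CXCR4, the receptor for CXCL12, was the 1 call among 16 chemokine receptors, at 13.11 in L540Cy and 11.50 in L540 (1.61 ± 0.25 log2, limma adjusted p = 0.0112). None of 25 chemokines was called by limma, and 2 had an unadjusted p under 0.05. CCL22 and CCL17 had the largest differences, 1.47 (adjusted p = 0.332) and 1.14 log2 (adjusted p = 0.13), and CCL17 was called without an array of L1236 (0.0376).

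Cell cycle genes were lower in L540Cy. Of 33 measured members 10 fell and 0 rose, 28 differences were below 0 and the median was -0.44 log2, beside -0.13 to 0.10 log2 between duplicates. The median level was 10.20 in L540Cy and 10.84 in L540, and 10.23 to 11.28 in the other Hodgkin arrays. CCNA2, cyclin A2, was at 9.40 in L540Cy and 11.29 in L540, and 10.13 was the lowest of the others (-1.89 ± 0.21 log2, limma adjusted p = 0.00288). CDK6, the G1 kinase gene, was lower by -1.69 ± 0.37 log2 (limma adjusted p = 0.041), and MCM2, of the replicative helicase, was at 10.58 in L540Cy and 12.09 in L540 (-1.51 ± 0.23 log2, limma adjusted p = 0.0106), with 11.65 as the others' lowest value. The other 7 calls included MCM3, MCM5, MCM6, the ribonucleotide reductase gene RRM2 and the cyclin genes CCNB1 and CCNB2. Without an array of L428 the list had 5 falls and with all 15 arrays 3. CDK6 was lost without L428 (adjusted p = 0.0747) or L1236 (0.063) and with the most variable of its 7 probe sets (-0.89 log2, adjusted p = 0.594), MCM2 with all 15 arrays (0.0864).

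Replication-dependent histone genes held many of the largest falls. Their list was added after the data were seen. Of 42 measured members 15 fell and 0 rose, and the median difference was -0.79 log2. Between duplicates the median of the list was -0.03 log2 in L428, -0.38 in L1236, -0.34 in KM-H2 and 0.06 in HDLM2. The median level was 5.43 in L540Cy and 6.28 in L540, and 5.04 to 5.62 in the 8 other Hodgkin arrays, so L540 was the one above them. H1-2, a linker histone gene, was at 8.25 in L540Cy and 13.84 in L540, and at 6.46, 9.63 and 11.96 in the others (-5.60 ± 0.82 log2, limma adjusted p = 0.00924). H2BC17 was at 4.12 in L540Cy and 8.32 in L540 (-4.20 ± 0.34 log2, limma adjusted p = 0.00048) and H4C8 at 5.49 in L540Cy and 9.68 in L540 (-4.20 ± 0.42 log2, limma adjusted p = 0.00159). Outside the list, H2BC12L was at 8.85 in L540Cy and 13.32 in L540 (-4.47 ± 0.79 log2, limma adjusted p = 0.0177). Histone genes also varied between duplicates, by up to 2.47 log2 in KM-H2, and they are near-identical copies, so single members are uncertain.

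Of 21 chromatin and DNA methylation genes 3 fell and 1 rose. TET2, which oxidises methylcytosine, was at 5.38 in L540Cy and 8.73 in L540, and L540Cy was below the others' lowest value of 7.0 (-3.35 ± 0.29 log2, limma adjusted p = 0.000755, -1.60 log2 with the mean of its 3 probe sets). UHRF1, which maintains DNA methylation, was at 9.11 in L540Cy and 11.29 in L540, against at least 10.75 in the others (-2.18 ± 0.24 log2, limma adjusted p = 0.00239). EZH2, a histone methyltransferase gene, was lower by -1.0 ± 0.21 log2 (limma adjusted p = 0.0311) and the deacetylase gene HDAC9 higher by 1.85 ± 0.43 log2 (limma adjusted p = 0.0494). EZH2 was not called without an array of L428 (adjusted p = 0.0704) or with all 15 arrays (0.0537). HDAC9 was not called without an array of L428 (0.0518), KM-H2 (0.0615) or HDLM2 (0.0543), and had 0.25 log2 with the mean of its 5 probe sets (adjusted p = 0.534).

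**Figure D3:**
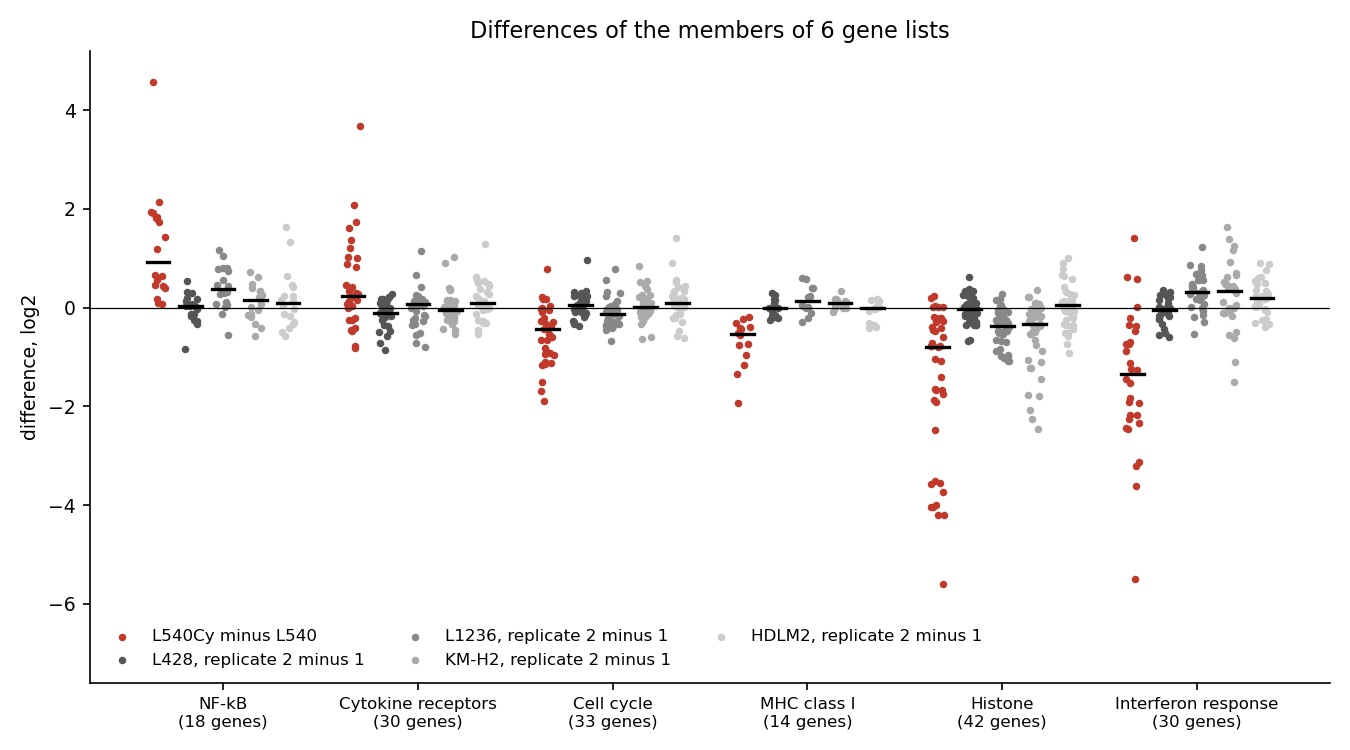
Each point is a gene of 1 of 6 lists, placed by its difference in log2 (y axis): L540Cy minus L540 in red, and replicate 2 minus replicate 1 of L428, L1236, KM-H2 and HDLM2 in greys. Bars are medians. The red medians are 0.92 for NF-kB genes and -1.35 for interferon response genes.

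GZMB and NKG7, cytotoxic granule genes that L540 already carried, were higher still in L540Cy, while GZMA was bright in L540Cy alone. GZMB, the granzyme B gene, was at 13.86 in L540Cy and 10.15 in L540, and between 4.28 and 5.30 in the 8 other Hodgkin arrays. The pair alone thus carried this signal, L540Cy above L540 (3.71 ± 0.29 log2, limma adjusted p = 0.000412). NKG7 was at 12.15 in L540Cy and 11.24 in L540, with 6.35 as the highest of the others (0.91 ± 0.19 log2, limma adjusted p = 0.0349). GZMA, granzyme A, was at 7.39 in L540Cy and 4.48 in L540 (2.90 ± 0.23 log2, limma adjusted p = 0.000443), and no other array exceeded 4.74. These 3 were the calls among 15 cytotoxic and NK genes, whose median difference was -0.03 log2. The perforin gene PRF1 was at 6.36 in L540Cy and 6.64 in L540, and GNLY at 5.10 in L540Cy and 5.17 in L540. NKG7 was lost without an array of L428 (adjusted p = 0.0734) or KM-H2 (0.0557) and with all 15 arrays (0.143).

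Calls among other immune lineage genes were few outside the list of SLAM receptors and adaptors, where SLAMF1 was the 1 receptor called. The shares over all tested genes were 2.20% higher and 2.24% lower. Of 14 SLAM receptors and adaptors 3 rose and 0 fell, with a median of -0.06 log2: SLAMF1, its adaptor gene SH2D1A (9.07 in L540Cy and 8.10 in L540, 0.97 ± 0.19 log2, limma adjusted p = 0.0252) and the inositol phosphatase gene INPP5D (7.76 in L540Cy and 6.56 in L540, 1.20 ± 0.21 log2, limma adjusted p = 0.0161). Of 25 T cell genes 1 fell, the costimulatory receptor gene ICOS, at 4.91 in L540Cy and 6.28 in L540 (-1.37 ± 0.23 log2, limma adjusted p = 0.0145), and 0 rose. Of 18 B cell genes none was called by limma and 1 had an unadjusted p under 0.05, and CD37, with the largest difference, had 0.90 log2 (adjusted p = 0.388). SPIB, a B cell transcription factor gene at 0.86 log2 (adjusted p = 0.0804), was called with the array number as a block (0.0497), after a repeated quantile normalization (0.045) and without an array of HDLM2 (0.0298), and its alternatives reached 1.0. Of 17 myeloid genes 2 rose, GPR84 and CEBPB (12.18 in L540Cy and 11.03 in L540, 1.15 ± 0.24 log2, limma adjusted p = 0.0316), while CD14, LYZ and MPO were below 5.5 in both. Of 24 Hodgkin markers 2 rose: TRAF1 and the actin-bundling gene FSCN1 (9.16 in L540Cy and 7.54 in L540, 1.62 ± 0.23 log2, limma adjusted p = 0.0077). Among 37 lineage transcription factors ZBTB32 (2.25 ± 0.32 log2, limma adjusted p = 0.00811) and TCF12 (1.85 ± 0.23 log2, limma adjusted p = 0.00451) rose and FOXP1 fell by 1.77 ± 0.35 log2 (limma adjusted p = 0.0273). FOXP1 had -0.35 log2 with the mean of its 8 probe sets (adjusted p = 0.577), SH2D1A had an adjusted p of 0.298 with that mean, and TCF12 had 0.71 log2 with the mean of its 4. With the most variable probe set TCF12 (0.92 log2, adjusted p = 0.0592) and FSCN1 (1.10 log2, adjusted p = 0.191) were not called. With the array number as a block the Hodgkin markers had 1 fall, the T cell genes 2 and the transcription factors 4. Without an array of L428 SH2D1A (adjusted p = 0.0533) and CEBPB (0.0681) were not called, and with all 15 arrays these, INPP5D, TRAF1, FSCN1 and FOXP1 were not (0.0573 to 0.141).

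Stress and metabolic genes gave scattered calls, beside 2.20% higher and 2.24% lower over all tested genes. Of 18 stress response genes 3 rose and 1 fell, with a median of 0.32 log2. PPP1R15A, the phosphatase subunit that ends the stress block of translation, was at 10.59 in L540Cy and 7.94 in L540, and 9.88 was the highest of the others (2.65 ± 0.40 log2, limma adjusted p = 0.00989). TRIB3 was 1.99 ± 0.29 log2 higher (limma adjusted p = 0.00933), SESN2 1.78 ± 0.35 log2 higher (limma adjusted p = 0.0271), and the small heat shock gene HSPB1 fell by 0.91 ± 0.20 log2 (limma adjusted p = 0.0366). Of 24 hypoxia and glycolysis genes 3 rose: the glycolytic regulator PFKFB3 (9.37 in L540Cy and 7.18 in L540), the enolase gene ENO2 and the glucose transporter gene SLC2A1, by 2.19, 1.57 and 1.31 log2, and none of these was called without an array of L428 (adjusted p = 0.0532 to 0.0584). Of 18 cholesterol and fatty acid genes HMGCS1, SQLE and INSIG1, of sterol synthesis and its control, rose by 1.45, 1.14 and 0.93 log2, and ELOVL6 fell. ELOVL6 was at 3.75 in L540Cy and 7.20 in L540, against at least 7.88 in the 13 others (-3.45 ± 0.26 log2, limma adjusted p = 0.000321, -1.49 log2 with the mean of its probe sets, 1 of which had 0.58). Of 29 detoxification genes HMOX1 rose and MGST2 fell by 1.36 log2 (limma adjusted p = 0.0325). Without an array of L428 SESN2, HSPB1, SQLE and INSIG1 were not called (adjusted p = 0.0516 to 0.0946), nor were HSPB1, SQLE and INSIG1 without one of L1236 (0.0512 to 0.0732) or ENO2, INSIG1 and MGST2 without one of KM-H2 (0.0525 to 0.0545). With all 15 arrays TRIB3, SESN2, HSPB1, ENO2, SLC2A1, HMGCS1, SQLE, INSIG1 and MGST2 were not called (0.0714 to 0.704). The mean of probe sets ended the calls of SLC2A1 (0.62 log2, adjusted p = 0.186) and HMGCS1 (1.70 log2, adjusted p = 0.0515). The most variable probe set ended those of HMGCS1 (1.96 log2, adjusted p = 0.275) and SQLE (0.83 log2, adjusted p = 0.0688). With the array number as a block 2 cholesterol and fatty acid genes fell, and 2 detoxification genes rose and 2 fell.

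The remaining lists had few calls each, and over all tested genes 2.20% were called higher and 2.24% lower. In the NOTCH list HEY1, a target of the pathway, was at 10.51 in L540Cy and 8.25 in L540, above the 9.14 that the other Hodgkin arrays reached (2.26 ± 0.36 log2, limma adjusted p = 0.0123), and HES1 was 1.39 ± 0.25 log2 higher (limma adjusted p = 0.0184, 0.071 with the mean of its probe sets and 0.326 with all 15 arrays), 2 rises and 0 falls among 24. Of 19 JAK-STAT genes 1 rose, STAT3, by 0.76 ± 0.17 log2 (limma adjusted p = 0.0464). It was not called without an array of L428, L1236 or KM-H2 (adjusted p = 0.0686 to 0.0997). Its call also ended with all 15 arrays (0.577), the mean of its 4 probe sets (0.0519) and the most variable one (0.0594). Of 24 AP-1 and immediate early genes the phosphatase genes DUSP5 and DUSP6 rose, by 1.82 and 1.63 log2. DUSP6 was not called without an array of L428 or KM-H2 (adjusted p = 0.0941 and 0.0676). It was also lost with all 15 arrays (0.463), the mean of its 3 probe sets (0.0669) and the most variable one (0.0592). Among 38 adhesion and migration genes ICAM1 and the urokinase receptor gene PLAUR (1.73 log2) rose and LGALS3 fell. PDGFRA was the 1 fall among 26 receptor tyrosine kinases, at 5.95 in L540Cy and 8.21 in L540 (-2.26 ± 0.22 log2, limma adjusted p = 0.0013). RRS1, a ribosome biogenesis gene, was the 1 fall among 17 genes of the MYC list (-1.29 log2, limma adjusted p = 0.00966), BCL2A1 the 1 call among 23 apoptosis genes, and limma called none of 14 cancer-testis antigens, of which 1 had an unadjusted p under 0.05. PRAME had the largest difference among them (-0.65 log2, adjusted p = 0.145). With the array number as a block 2 JAK-STAT genes were higher and 1 lower, 3 apoptosis genes higher, 1 MYC list gene higher and 2 lower, 2 adhesion genes lower and 1 receptor tyrosine kinase higher.

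Differences also fell on neighbouring genes. Genes were put in RefSeq order along each chromosome, and the 9888 genes whose mean over the Hodgkin arrays was at or above the median of all genes were used, a filter chosen after the data were seen because RMA compresses dim genes. Over these the median difference was 0.00 log2. By chromosome it was 0.40 log2 for the 277 genes of chromosome 20, 0.37 for the 167 genes of chromosome 13 and 0.20 for the 474 genes of chromosome 7. It was -0.26 log2 for the 439 genes of chromosome 5, -0.24 for the 326 of chromosome 4, -0.18 for the 128 of chromosome 18 and -0.16 for the 529 of chromosome 6. The medians of the duplicates lay between -0.05 and 0.18 log2 over all chromosomes, with the 0.18 on chromosome 13 in HDLM2. Calls leaned the way of the median on chromosomes 4, 5, 6 and 20, but less so on chromosome 13. On chromosome 20, 32 genes were called higher and 0 lower, and on chromosome 13, 8 higher and 4 lower. On chromosome 4, 50 genes were called lower and 12 higher. Chromosome 5 had 38 lower and 6 higher, and chromosome 6 had 52 lower and 11 higher. Chromosome 7 had 22 higher and 8 lower, and chromosome 18 had 1 higher and 6 lower. Over all 9888 genes 337 were called higher and 376 lower.

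**Figure D4:**
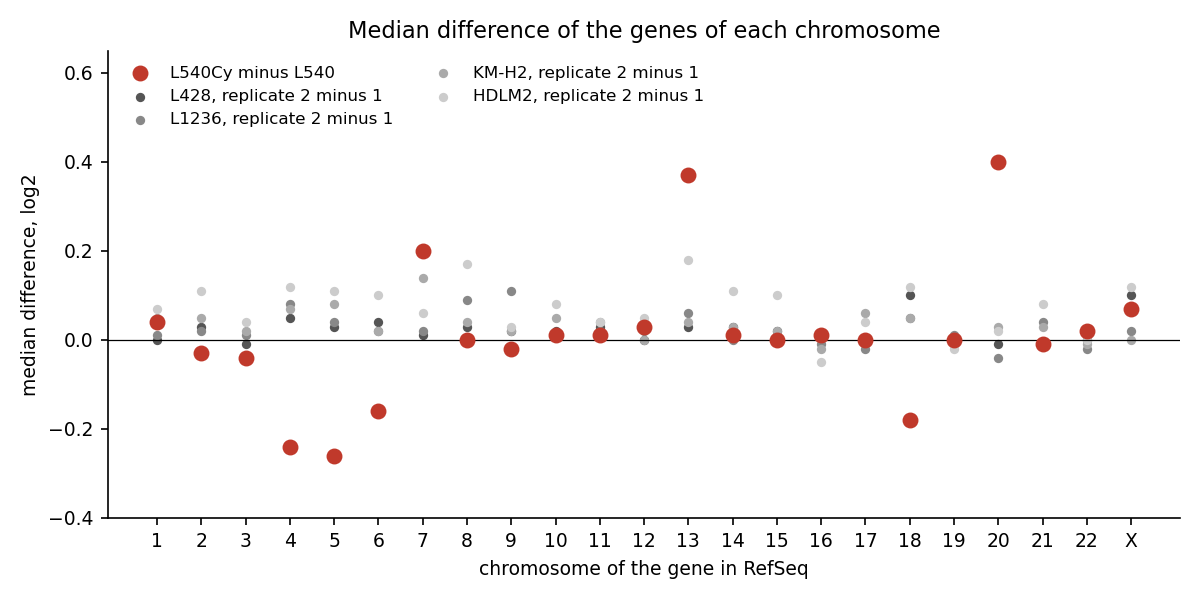
Median difference in log2 (y axis) of the genes of each chromosome (x axis) with a mean at or above the median of all genes. Large red points are L540Cy minus L540, and small points replicate 2 minus replicate 1 of L428, L1236, KM-H2 and HDLM2. Chromosomes 13 and 20, at 0.37 and 0.40, and chromosomes 4 and 5, at -0.24 and -0.26, lie furthest from 0.

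Along a chromosome the medians of 15 neighbouring genes had an SD of 0.23 log2 between L540Cy and L540, against 0.075 to 0.142 log2 between duplicates (with dim genes kept it was 0.129 log2, against 0.071 to 0.11 log2). They were at least 0.5 in size in 453 of 9549 windows, against 0 to 27 windows between duplicates. With dim genes kept, 86 of 19365 windows were of that size, against 0 to 13. The longest stretch in which every window median passed 0.2 log2 in 1 direction ran on chromosome 5 from ZFYVE16 to ARHGAP26, over 159 genes and 145 windows, with a median of -0.41 log2 and 20 calls lower and 1 higher. Between duplicates the longest such stretches had 23 to 60 windows. The second longest between L540Cy and L540 ran on chromosome 6 from MYLIP to AGPAT1 (112 genes, 98 windows). Its median was -0.48 log2, with 22 calls lower and 0 higher. Also on chromosome 6, SKIC2 to SPDEF (52 genes) had -0.30 log2, with 8 calls lower and 0 higher. H1-2, H2BC17, H4C8, PSMB8, PSMB9, HLA-DMA and HLA-DQA1, named above, lie on the same chromosome. Chromosome 4 changed sign along its length. From RNF4 to DCUN1D4 (82 genes) the median was 0.29 log2, from G3BP2 to ARLN (93 genes) -0.45 log2 and from TIFA to UFSP2 (105 genes) -0.56 log2, with 23 calls lower and 1 higher in the last. On chromosome 20, stretches from ATRN to PDRG1, NOL4L to CD40 and RTF2 to PCMTD2 had medians of 0.44, 0.36 and 0.39 log2. None of them had a call lower. On chromosome 13 the stretch from HMGB1 to ZIC2 had 0.38 log2, with 6 calls higher and 4 lower. The start of the X chromosome, from PLCXD1 to USP9X (68 genes), had 0.62 log2 and 18 calls higher and 0 lower, although the median of the whole chromosome was 0.07 log2. Over these same genes the duplicates had medians between -0.12 and 0.22 log2. Copy number was not measured.

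**Figure D5:**
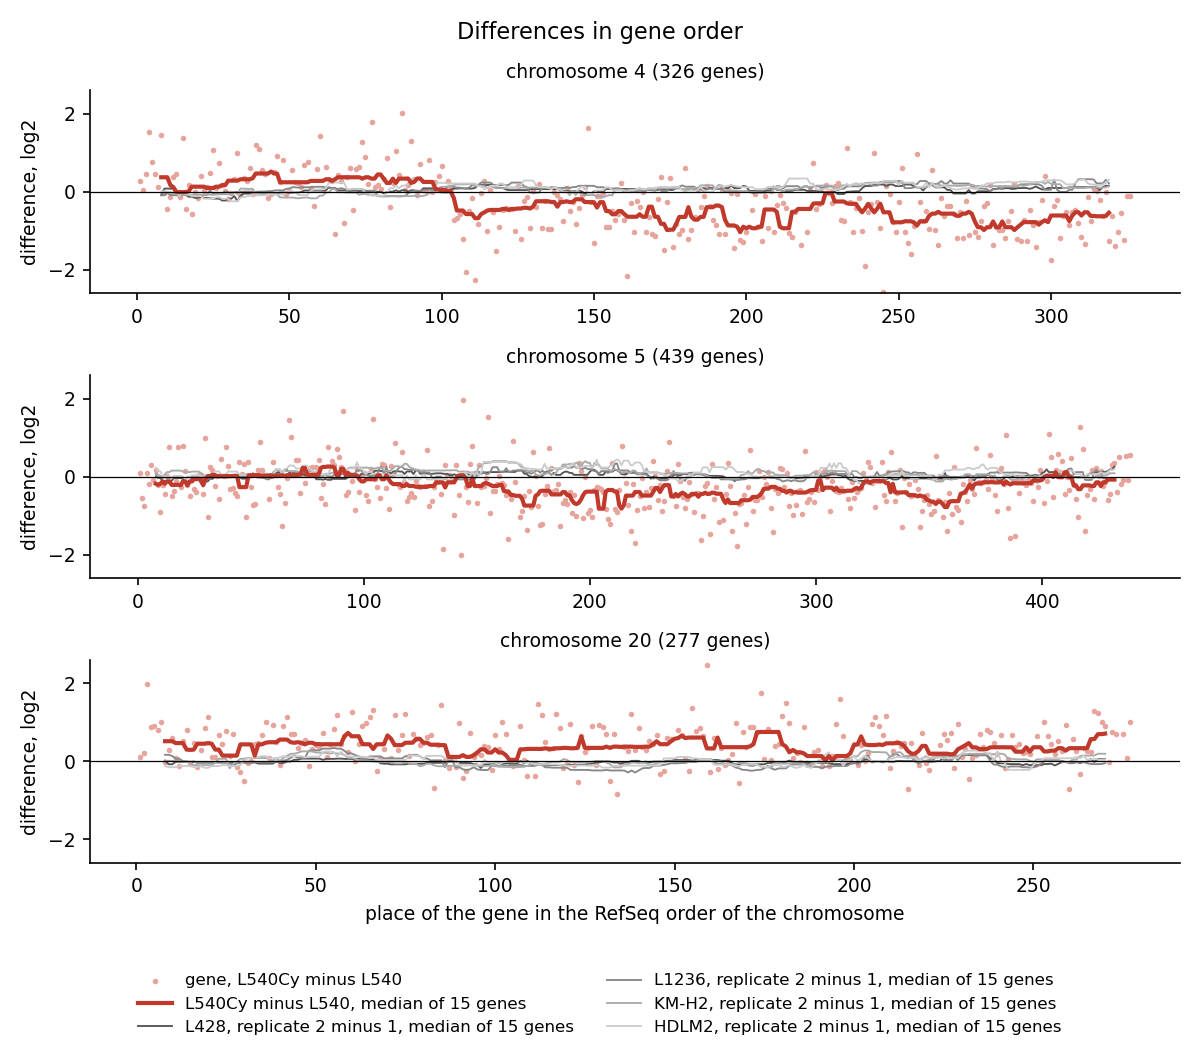
Difference in log2 (y axis) of genes in RefSeq order (x axis) on chromosomes 4, 5 and 20. Pale points are single genes, L540Cy minus L540, and the red line is their median over 15 neighbours; grey lines are the same median for replicate 2 minus replicate 1 of the 4 duplicated lines. Points beyond 2.6 log2 in size, 4 on chromosome 4, 3 on chromosome 5 and 1 on chromosome 20, are not drawn. On chromosome 4 the red line changes sign, and on chromosome 20 it lies above 0 nearly throughout.

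The run of 15 genes with the largest median lay on chromosome 6 between GMNN and BTN3A3, at -1.57 log2, where 13 of 15 were lower and 9 were called. It holds a part of the histone cluster and butyrophilin genes. GMNN, the replication licensing inhibitor geminin, was at 10.29 in L540Cy and 11.86 in L540 (-1.57 log2), and the histone genes H1-2, H2AC6, H2BC5, H2BC6 and H2BC9 were lower by -5.60 to -3.55 log2. BTN3A3, which is of the phosphoantigen-sensing butyrophilin family, was at 5.68 in L540Cy and 8.31 in L540, against at least 7.26 in the other Hodgkin arrays (-2.63 ± 0.24 log2, limma adjusted p = 0.000841), and BTN3A2 and BTN3A1 were lower by -2.31 and -1.50 log2. In this run the duplicates of L1236 and KM-H2 also differed, by medians of -0.54 and -0.45 log2. H2BC6 (adjusted p = 0.0638) and H2BC9 (0.0755) were not called without an array of L428, and with all 15 arrays H1-2, H2AC6 and BTN3A3 alone of the 9 were called.

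The largest upward runs lay on the X chromosome. From PHKA2 to PDK3 all 15 genes were higher, with a median of 1.07 log2 and duplicate medians of -0.12 to 0.16 log2. The 7 calls were MBTPS2 (a protease that activates sterol regulators), SMS and SAT1 of polyamine metabolism, ACOT9, KLHL15, EIF2S3 (a translation initiation factor) and the pyruvate dehydrogenase kinase gene PDK3. SAT1 was at 10.50 in L540Cy and 8.12 in L540 (2.38 ± 0.34 log2, limma adjusted p = 0.00805), and the others were higher by 0.82 to 1.48 log2. From PUDP to PIGA all 15 were again higher, with a median of 0.96 log2. The 6 calls were RAB9A, a gene of endosomal transport at 11.72 in L540Cy and 9.43 in L540 (2.29 ± 0.26 log2, limma adjusted p = 0.00308), PIGA (1.71 log2), TMSB4X, OFD1, PNPLA4 and MOSPD2. L540 was below the other Hodgkin arrays for RAB9A, the lowest of which had 10.84. Without an array of L428 KLHL15, EIF2S3, PNPLA4 and PIGA were not called (adjusted p = 0.0519 to 0.0945), nor EIF2S3 and MOSPD2 without one of L1236 (0.0727 and 0.062), nor EIF2S3, PIGA and MOSPD2 without one of KM-H2 (0.0588 to 0.061). With all 15 arrays 4 of these 13 genes were called, MBTPS2, TMSB4X, RAB9A and OFD1, and MBTPS2 was not called with the mean of its probe sets (0.67 log2, adjusted p = 0.0992).

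Chromosome 4 held downward runs of this size. From PPP3CA to TBCK the median was -1.03 log2, and TET2, CISD2 (-1.43 log2), CENPE (-1.28), BDH2 (-1.24), the metal transporter gene SLC39A8 (-1.08) and the calcineurin gene PPP3CA (-1.07) were called. From AIMP1 to FAM241A it was -0.93 log2, and 14 of 15 genes were lower. There CFI, which encodes complement factor I, was at 8.02 in L540Cy and 11.68 in L540, and its 8 other Hodgkin arrays ranged from 4.03 to 11.98 (-3.67 ± 0.26 log2, limma adjusted p = 0.000211), while ELOVL6, GAR1 (-1.37 log2), CASP6 (-1.15) and HADH (-1.03) were also called. In both runs the duplicates had medians of 0.00 to 0.21 log2. BDH2, CENPE, PPP3CA, CASP6 and HADH were not called without an array of L428 (adjusted p = 0.0571 to 0.095), PPP3CA and HADH without one of L1236 (0.0626 and 0.0541), PPP3CA, CENPE and CASP6 without one of KM-H2 (0.0527 to 0.0634) and HADH without one of HDLM2 (0.0501). With all 15 arrays PPP3CA, BDH2, CENPE, SLC39A8, CASP6 and HADH were not called (0.0787 to 0.186), and BDH2 had -0.65 log2 with the mean of its probe sets (adjusted p = 0.226). Further downward runs on chromosome 4 went from AFF1 to EIF4E (median -0.98 log2, 7 calls) and from ABCE1 to MND1 (-0.97 log2, 6 calls). The run from MFSD8 to MGST2 had -0.86 log2 and 4 calls. The genes of these further runs are not described here.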

How the data were processed

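Per the submitters' processing notes the deposited log2 values come from RMA, robust multi-array averaging, run by the authors. Its software and settings were not given in these sources. Per the labels' protocols, total RNA was extracted with a column kit and labelled with biotin. Array medians lay between 5.50 and 5.57. Of 54675 probe sets, 62 controls were left out, 41091 had 1 gene symbol, 1801 several and 11721 none; the first kind was used, and 41037 matched RefSeq. A gene was its brightest probe set on average over all 15 arrays, which gave 19775 genes. No dim gene was filtered in the tests. Some genes are not analysed here.

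The fit was limma 3.58.1 in R 4.3.3 (lmFit, eBayes, two-sided, adjusted over all genes), tested on simulated data. Members and lists were chosen with earlier results of these data known. The genes named were the 15 largest rises and falls among called genes also past 1 log2 and every duplicate difference, 4 pair markers, up to 3 called members per list and direction (or 2 uncalled), and called genes of described runs; a few others were named after their values were seen. The histone list, the filter for neighbouring genes and list counts by setting were added after seeing the data. Array numbers deviated together across the 4 duplicated lines (correlations 0.246 to 0.355 over all 6 pairs), while the series' design text calls the duplicates biological. Because of the shared deviation, blocked counts are printed for all genes and for many of the lists. L540Cy and L540 carry no number and were coded halfway between the numbers. The block therefore cannot adjust their difference and alters the spread alone. Alternatives were other probe-set rules, filters on dim genes, repeated normalization, all 15 arrays, a moderated trend, a minimum difference and the block. Each of the 8 duplicate Hodgkin arrays was also left out in turn, but the arrays of L540Cy and L540 could not be. Either array of a line gives the same fit when left out, since the spread of that line is then lost. Promoter windows came from RefSeq (GRCh38.p14) and were searched for letters only.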

Additional observations from a re-analysis of the deposited data

How the results depend on the processing

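The difference between L540Cy and L540 had an SD of 0.536 log2, 0.466 when the probe sets of a gene were averaged, 0.671 over genes of at least 6 log2 in either array and 0.646 over genes at or above the median. The SD over windows of neighbouring genes was 0.129 log2 with all genes and 0.23 with dim genes left out. The counts of 435 higher and 443 lower genes became 842 and 858 with the replicate block, 127 and 167 with all 15 arrays, and 30 and 46 when a difference beyond 1 log2 was tested for. They were 435 and 443 without Reh replicate 1 and Namalwa replicate 2, when those lines add no spread. Leaving out 1 of the 8 duplicate arrays gave 249 to 561 higher and 281 to 604 lower genes. The counts were lowest without L428 and highest without HDLM2. Among the genes named by the rule, the block changed the call of SPIB alone, which passed with it (adjusted p = 0.0497, from 0.0298 to 1.0 over its alternatives). The few genes named after their values were seen, IFIT2 and IL6 among them, were not part of this check. With the block 1 interferon response gene and 5 cytokine genes were called higher, against 0 and 4 without it. Through all alternatives but the minimum difference 67 higher and 98 lower genes kept their call.

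Interferon response genes had 17 falls, 4 with all 15 arrays, 2 beyond 1 log2 and 10 to 18 with 1 array left out. NF-kB genes had 7 rises, 2 with all 15 arrays, 4 with the most variable probe set, 0 beyond 1 log2 and 5 to 8 with 1 array left out. Cell cycle genes had 10 falls, 3 with all 15 arrays, 0 beyond 1 log2 and 5 to 11 with 1 array left out. Histone genes had 15 falls, 9 with dim genes left out, 3 beyond 1 log2 and 12 to 17 with 1 array left out. HLA-DQA1 had 0.03 log2 with its most variable probe set and OSMR 0.10 log2 with the mean of its probe sets, both against the sign of the reported value. Where no construction shows it, the cause was not tested. With 1 array a side, no spread of L540Cy or L540 itself was measured, and signals near background limit the size of falls to dim levels.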

Other observations

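Probe sets with several gene symbols or none were kept out of every comparison above. Of these 13522 probe sets, 260 were higher and 127 lower in L540Cy than in L540 by at least 1 log2 and by more than every duplicate difference, 2.86% in all. The genes are not named here.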
